A study of Mus musculus with 4 samples.

Results

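Gdf15, Fgf21, Vegfa, Angpt1 and Csf1 are 5 genes for secreted factors that have been tied to stress in mitochondria or in amino acid supply, or that are made by marrow cells to act on their neighbours. They are 5 of the 20136 genes named on a mouse bead array and were read from 9 of its 45281 probes, by taking every probe whose gene name on the array or in the platform annotation is one of the 5, detected or not. Gdf15, Fgf21 and Csf1 had 1 probe each, and Vegfa and Angpt1 had 3 each. One of the Angpt1 probes carried another name on the array (AGPT) and was taken through the platform annotation. The study compared lineage-negative cells of the bone marrow, a fraction rich in progenitors because cells that carry antigens of mature blood lineages are taken out. All mice were homozygous for a floxed Atad3a allele. Atad3a encodes an ATPase of the inner mitochondrial membrane. The deletion group, Atad3afl/flMx1Cre, had the Mx1Cre transgene as well, whose recombinase is driven by a promoter that interferon switches on, in blood cells and in other tissues too. The control group, Atad3afl/fl, had the same floxed alleles and no Cre. All samples were taken on day 12 after induction with poly I:C, a synthetic RNA that induces interferon, so both groups had received it. Mx1Cre and the loss of Atad3a therefore cannot be told apart. There were 2 arrays in each group, 1 per sample, and the labels do not say whether the samples came from separate animals, so a p-value here covers the spread of these samples alone and that spread may be technical.

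GDF15 is a distant member of the TGF-beta family that circulates and acts through the receptor GFRAL with its partner RET in the brainstem. FGF21 is an endocrine fibroblast growth factor that needs the co-receptor beta-Klotho. Both genes are well-known targets of ATF4, the transcription factor of the integrated stress response, and both proteins are used as blood markers of mitochondrial disease. VEGF-A drives the growth of blood vessels and is induced by hypoxia-inducible factors and also by ATF4. Angiopoietin 1 is the activating ligand of the TIE2 receptor and is made in marrow by several cell types, stem and progenitor cells among them. CSF1 is the growth factor of monocytes and macrophages.

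The stretches of DNA just before the annotated starts of the stress-regulated members are shown because a C/EBP-ATF response element, the sequence through which ATF4 acts, was looked for there. They are from RefSeq on GRCm38.p6, all on the minus strand and written 5′ to 3′ along the gene. They end at the gene's outermost annotated start, and capitals mark matches to the 4 motifs searched on both strands: TGATGNAA (C/EBP-ATF response element), ACGTG (the core of a hypoxia response element), TGANTCA (AP-1) and CACGTG (E-box, which contains ACGTG on both strands).
Fgf21, chr7:45615491-45615740: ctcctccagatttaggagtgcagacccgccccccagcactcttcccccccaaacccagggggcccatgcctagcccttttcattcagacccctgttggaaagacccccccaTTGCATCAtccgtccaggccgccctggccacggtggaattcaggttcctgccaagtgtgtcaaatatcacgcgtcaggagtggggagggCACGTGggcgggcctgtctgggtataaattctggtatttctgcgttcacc
Gdf15, chr8:70632471-70632706: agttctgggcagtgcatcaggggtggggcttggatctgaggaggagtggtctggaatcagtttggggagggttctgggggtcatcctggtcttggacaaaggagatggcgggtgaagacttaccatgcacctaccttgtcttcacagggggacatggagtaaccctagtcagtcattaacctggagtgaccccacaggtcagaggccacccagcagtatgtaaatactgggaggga
Vegfa, chr17:46032378-46032627: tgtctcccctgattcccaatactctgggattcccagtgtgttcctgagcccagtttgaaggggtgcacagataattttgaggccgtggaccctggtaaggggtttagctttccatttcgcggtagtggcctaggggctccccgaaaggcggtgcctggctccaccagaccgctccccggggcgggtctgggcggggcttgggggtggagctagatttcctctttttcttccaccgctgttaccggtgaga

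RefSeq windows, from 250 bases before a start to 50 after it, were matched for 4 of the 5 genes, 6 windows in all, with 2 each for Gdf15 and Vegfa and 1 each for Fgf21 and Csf1. The Fgf21 window held TGATGNAA once, as TTGCATCA on the opposite strand, with its first base at position -139 from the start. That motif is in 3.97% of the 32851 windows of the table. The Fgf21 window also held the E-box CACGTG at -50, and the second Gdf15 window, at a start inside the gene, held one at -83. The E-box is in 7.15% of windows and ACGTG in 19.6%. The second Vegfa window held ACGTG on the opposite strand at -211. TGANTCA, found in 7.81% of windows, was in none of the 6 windows. A missing match says only that these letters are not in this window.

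On the array itself the 5 genes split into a set that rose and 1 that could not be seen. Gdf15, Vegfa, Angpt1 and Csf1 were each higher in the Atad3afl/flMx1Cre samples by at least 1 probe, and Fgf21 was not detected on any array. Of the 9 probes, 5 passed the filter on dim probes (detected, with p under 0.05 against the negative control beads, on 2 arrays or more) and were tested, and the other 4 did not. All 5 tested probes were called higher and 0 were called lower by limma (Benjamini-Hochberg adjusted p under 0.05 over all 18367 tested probes). Over the whole array 14.0% of tested probes were called higher, 13.0% lower and 27.0% in either direction, and on 36.7% both Atad3afl/flMx1Cre arrays lay above both Atad3afl/fl arrays. Probes of Gdf15 and Angpt1 passed the filter through the Atad3afl/flMx1Cre arrays alone, so they had to differ, and the count of 5 is no support for a shared direction. Exact relabelling of 2 against 2 arrays cannot give a two-sided p below 0.333. For that reason every adjusted p here rests on the variance that limma shares across probes.

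The arrays themselves were alike in depth. Detected probes numbered 17901 and 18072 on the Atad3afl/flMx1Cre arrays and 17536 and 16968 on the Atad3afl/fl arrays, and the lowest raw signal called detected was 119.9 and 119.3 on the Atad3afl/flMx1Cre arrays, against 104.4 and 112.4 on the Atad3afl/fl arrays. The median raw signal over all probes was 112.1 and 111.9 on the Atad3afl/flMx1Cre arrays, against 95.8 and 101.0 on the Atad3afl/fl arrays, so raw values of dim probes are to be read beside that floor. The targeted gene was lower, with an Atad3a log2 change of -1.07 (SE 0.13, adjusted p = 0.00866, limma), detected on all 4 arrays by 1 probe. Where that probe lies with respect to the floxed exons is not known here, so it checks the labels only in part. The Atad3a call was lost without either Atad3afl/flMx1Cre array (adjusted p = 0.0510 and 0.0667). Progenitor genes Kit, Cd34 and Ly6a were detected on all 4 arrays, and so were the T cell genes Cd3e, Cd3d and Cd3g, although the label is lineage-negative.

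**Figure D1:**
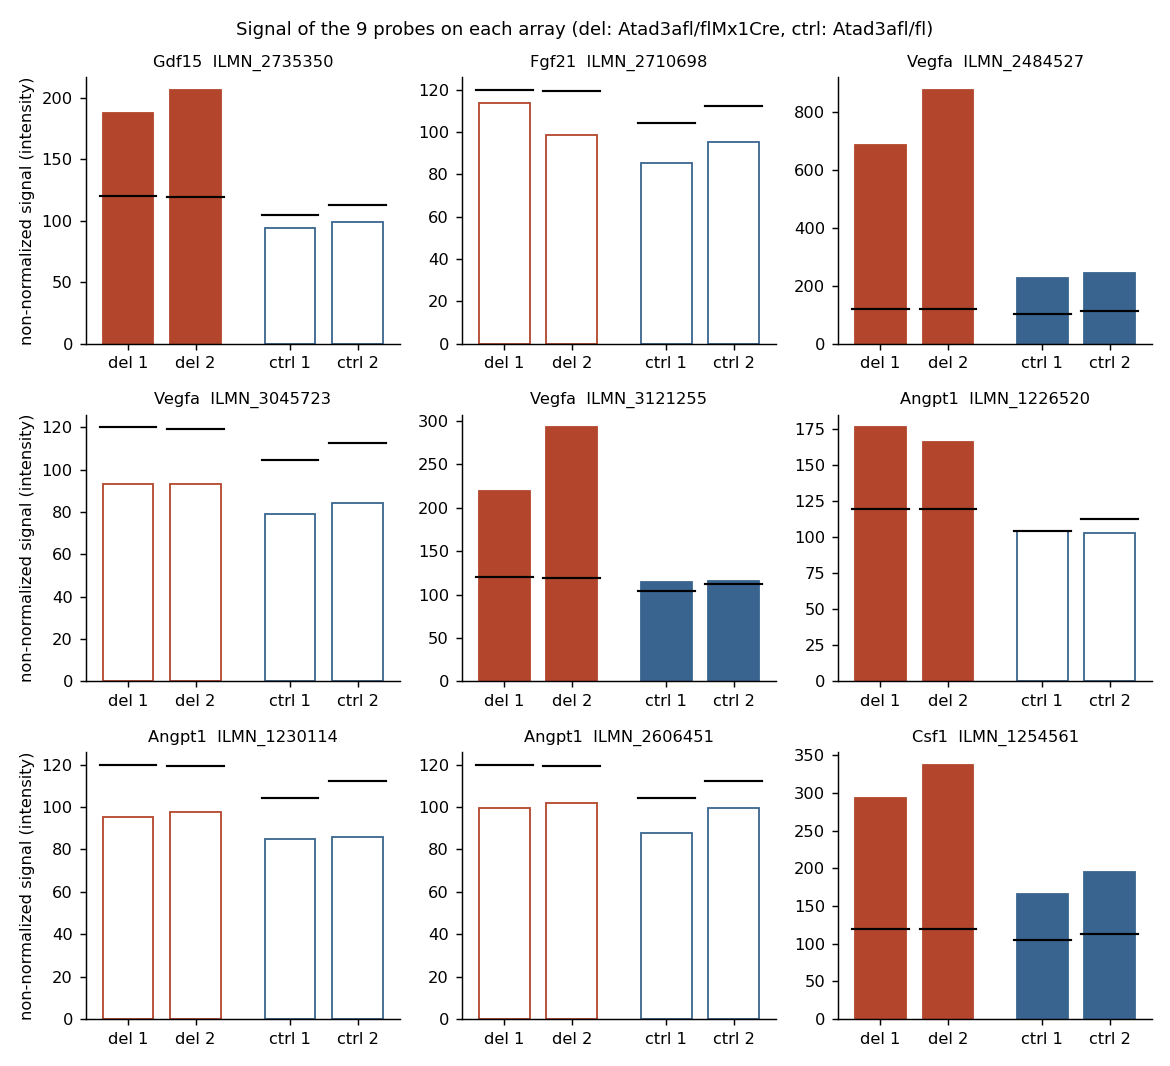
Non-normalized signal (linear intensity) of each of the 9 probes on the 4 arrays, 1 bar per array, with Atad3afl/flMx1Cre (del) left of Atad3afl/fl (ctrl). Filled bars were detected (p under 0.05), open bars were not, and the black line is the lowest signal called detected on that array. The Gdf15 bars reach 187.9 and 206.4 on the del arrays and stay under the line on the ctrl arrays, while the Fgf21 bars lie under the line on all 4.

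Gdf15 was undetected in controls and detected after deletion. Its probe ILMN_2735350 had raw signals of 187.9 and 206.4 on the Atad3afl/flMx1Cre arrays (detection p of 0 on both), against 94.1 and 99.1 on the Atad3afl/fl arrays (detection p of 0.236 and 0.229). On the log2 scale after background correction and quantile normalization these were 6.68 and 6.94, against 4.61 and 4.61. The groups did not overlap, and the Atad3afl/fl values lay at the floor, where they have no order. On this scale the change was therefore at least 3.43-fold. That bound sets the Atad3afl/flMx1Cre mean of 6.81 ± 0.18 (SD, n = 2) against the lowest detected signals of the control arrays. It holds for this correction and offset only. The fitted log2 change, to which the p-value belongs, was 2.20 (SE 0.14, adjusted p = 0.00224, limma). Its size differed between settings. The log2 change was 0.91 without background correction, 1.22 with a correction that uses no control beads and an offset of 50 in place of 16, and 0.79 in the authors' processed values, with adjusted p under the threshold each time. The platform annotation does not list this probe, and its name is the array's own.

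Fgf21 gave no detectable signal. Probe ILMN_2710698 read 113.5 and 98.4 on the Atad3afl/flMx1Cre arrays (detection p of 0.116 and 0.855), against 85.2 and 95.4 on the Atad3afl/fl arrays (detection p of 0.692 and 0.362). After normalization the values were 4.72 and 4.35, against 4.40 and 4.52 on the log2 scale. The groups overlapped, and all 4 values lay at the floor of the array. No fold is given, and a change in Fgf21 was not detectable at this sensitivity. With every probe of the array in the fit, detected or not, the number of probes of these genes called higher was again 5.

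Vegfa had the largest fitted change of the 4 tested genes by its brighter probe, and both of its detected probes rose. Since the Gdf15 change is given as a bound, Gdf15 and Vegfa cannot be ranked by size. Probe ILMN_2484527 read 686.3 and 876.0 on the Atad3afl/flMx1Cre arrays, against 225.8 and 243.1 on the Atad3afl/fl arrays, and was detected on all 4. Its log2 values were 9.35 and 9.76, against 7.26 and 7.21. The change was 4.99-fold (log2 change 2.32, SE 0.17, adjusted p = 0.00310, limma), with group means of 9.55 ± 0.29 and 7.23 ± 0.03 (SD, n = 2 each), and 0.381% of tested probes rose by more. Both Atad3afl/flMx1Cre arrays lay far above both Atad3afl/fl arrays. The log2 change of this probe was smaller without background correction (1.83) and in the authors' processed values (1.83).

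The dimmer Vegfa probe ILMN_3121255 moved alike. It read 219.1 and 292.5 on the Atad3afl/flMx1Cre arrays, against 114.7 and 115.5 on the Atad3afl/fl arrays, where its detection p was 0.0107 and 0.0256. The log2 values were 7.10 and 7.75, against 5.39 and 5.18, which is 4.41-fold (log2 change 2.14, SE 0.25, adjusted p = 0.00784, limma). The fold was smaller without background correction (log2 change 1.07), with the correction of offset 50 and no control beads (1.34) and in the authors' processed values (0.94). The platform annotation assigns this probe and ILMN_3045723 to one RefSeq transcript and ILMN_2484527 to another. ILMN_3045723 was not detected on any array, at 93.4 and 93.0 on the Atad3afl/flMx1Cre arrays, against 78.9 and 84.1 on the Atad3afl/fl arrays, which leaves no statement about it. The mean of the detected probes gave a log2 change of 2.23 for the gene.

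Angpt1 was called by 1 of its 3 probes. ILMN_1226520 read 176.2 and 166.4 on the Atad3afl/flMx1Cre arrays (detection p of 0 on both), against 104.1 and 102.7 on the Atad3afl/fl arrays, where it was not called detected on either (detection p of 0.0556 on replicate 1, and higher on replicate 2). Its log2 values were 6.49 and 6.32, against 4.98 and 4.72, and the groups did not overlap. The fitted log2 change was 1.55 (SE 0.15, adjusted p = 0.00544, limma), which stands as a bound of at least 2.59-fold because both controls were undetected. It was 0.60 without background correction, 0.81 with the correction of offset 50 and no control beads and 0.51 in the authors' processed values. The other probes, ILMN_1230114 and ILMN_2606451, were not detected on any array, with raw signals of 95.4 to 101.8 on the Atad3afl/flMx1Cre arrays and 85.1 to 99.8 on the Atad3afl/fl arrays. The platform annotation assigns ILMN_2606451 to the same RefSeq transcript as ILMN_1226520. For ILMN_2606451 the log2 values were 4.36 and 4.40, against 4.45 and 4.63, all at the floor. A single probe therefore carries the Angpt1 result.

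Csf1 was called by its 1 probe. Probe ILMN_1254561 read 293.0 and 337.3 on the Atad3afl/flMx1Cre arrays, against 166.4 and 194.7 on the Atad3afl/fl arrays, and was detected on all 4. Its log2 values were 7.77 and 8.05, against 6.55 and 6.73. The change was 2.41-fold (log2 change 1.27, SE 0.16, adjusted p = 0.00888, limma), and 3.32% of tested probes rose by more. Its log2 change was 0.82 without background correction and 0.76 in the authors' processed values. The call was lost without Atad3afl/flMx1Cre replicate 2 (log2 change 1.13, adjusted p = 0.0574).

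**Figure D2:**
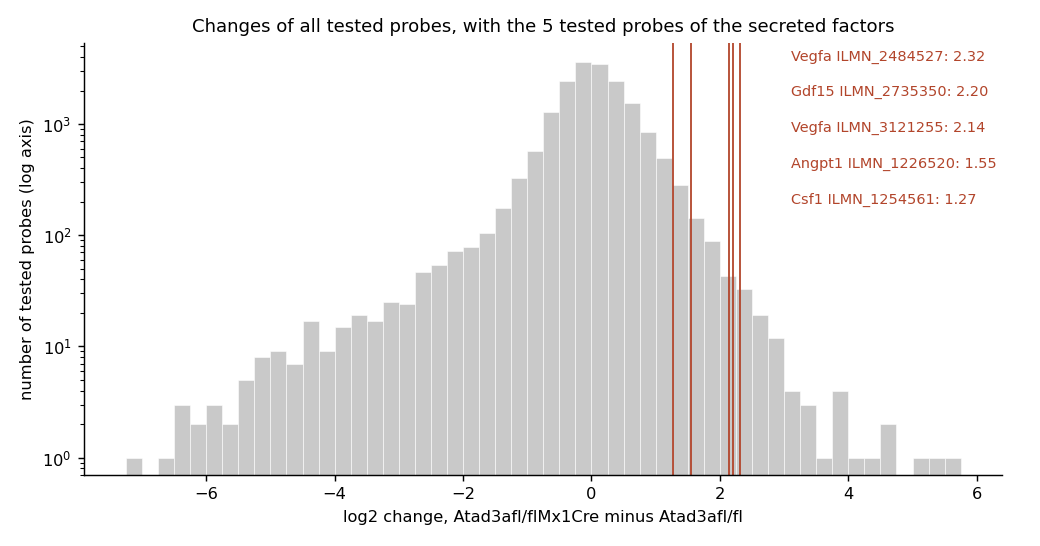
Number of tested probes (log axis) in bins of log2 change, Atad3afl/flMx1Cre minus Atad3afl/fl, for all 18367 tested probes. Red lines mark the 5 tested probes of Gdf15, Vegfa, Angpt1 and Csf1, which lie between 1.27 and 2.32 in the right-hand tail.

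The 2 Atad3afl/flMx1Cre arrays differed from each other by 0.17 to 0.66 on the log2 scale over the 5 tested probes. Replicate 2 was the higher for Gdf15, Csf1 and both Vegfa probes and the lower for Angpt1. Genes whose log2 values, centred on their own mean, ran closest to each of the 4 over the 4 arrays were listed by root mean square distance. For Gdf15 these were Ptger2, a prostaglandin E2 receptor (distance 0.052), Dntt, the template-independent DNA polymerase of lymphoid progenitors (0.059), and Serpinh1, a collagen chaperone (0.061). For Vegfa they were Dntt (0.039), Gdf15 itself (0.082) and Phlda3 (0.092), a p53 target. For Angpt1 they were Psat1, an enzyme of serine synthesis (0.034), Il17rb, an interleukin receptor chain (0.037), and Sstr2, a somatostatin receptor (0.050). For Csf1 they were Cacna1d, a calcium channel subunit (0.026), Abcb1b, a drug efflux pump (0.032), and Fhl1, a LIM domain protein (0.045). With 4 arrays in 2 groups such a distance mostly restates the size of the group difference. Gdf15, Angpt1 and Phlda3 were undetected in controls by these probes, so distances that involve them rest in part on values at the floor.

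The receptors of these factors were mostly below detection in this fraction. Of 15 receptor and co-receptor genes, 5 were tested, of which 3 were called higher, 1 lower and 1 did not pass, with a median log2 change of 0.83, against 14.8% called higher, 14.2% called lower and a median near 0 among 10405 named genes, each by its brightest detected probe. Gfral and Klb, which encode the GDF15 receptor and the FGF21 co-receptor, were detected on 0 arrays, as were Flt1, Fgfr1, Fgfr3, Fgfr4 and Nrp2, while Kdr, Flt4 and Tie1 were each detected on 1. Without Atad3afl/flMx1Cre replicate 1 or replicate 2 only 1 receptor was called higher.

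The tested VEGF-A receptor was the co-receptor Nrp1, which also binds semaphorins. Its log2 values were 9.67 and 9.86 on the Atad3afl/flMx1Cre arrays, against 8.46 and 8.46 on the Atad3afl/fl arrays. It was 2.47-fold higher (log2 change 1.31, SE 0.13, adjusted p = 0.00543, limma), and its 3 detected probes gave log2 changes of 1.04 to 1.34. Tek, which encodes the angiopoietin receptor TIE2, had log2 values of 6.52 and 6.38, against 5.25 and 5.43. It was 2.16-fold higher (log2 change 1.11, SE 0.13, adjusted p = 0.00822), and the call was lost without either Atad3afl/flMx1Cre array (adjusted p = 0.0606 and 0.0529). The Tek log2 change was 0.46 without background correction and 0.39 in the authors' processed values.

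Csf1r, the receptor of CSF1, was not called: its log2 values averaged 8.09 ± 0.12 on the Atad3afl/flMx1Cre arrays and 8.52 ± 0.21 on the Atad3afl/fl arrays (SD, n = 2 each), and the groups did not overlap. The log2 change was -0.44 (SE 0.16, adjusted p = 0.103), and a second probe gave 0.25 (adjusted p = 0.486). Ret, the signalling partner of GFRAL and also a receptor subunit for GDNF family ligands, was undetected on both Atad3afl/flMx1Cre arrays, at 4.81 and 4.52, against 5.75 and 5.94. It was at least 1.86-fold lower, with a fitted log2 change of -1.18 (adjusted p = 0.0104, limma). Its probe passed the filter through the Atad3afl/fl arrays alone. The Ret call was lost without Atad3afl/flMx1Cre replicate 2 (log2 change -1.04). The fitted log2 change of Ret was -0.42 without background correction and -0.37 in the authors' processed values. Fgfr2, one of the FGF receptors, was 1.78-fold higher (log2 change 0.83, SE 0.15, adjusted p = 0.0221), and its call was lost without any 1 of the 4 arrays (adjusted p = 0.0552 to 0.115).

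Ligands related to these factors were also read. Of 18, 6 were tested, with 1 called higher, 0 lower and 5 not passing (median log2 change 0.25). Vegfc, the lymphatic growth factor, averaged 7.14 ± 0.20 on the Atad3afl/flMx1Cre arrays and 6.30 ± 0.09 on the Atad3afl/fl arrays on the log2 scale (SD, n = 2 each), a 1.79-fold rise (log2 change 0.84, SE 0.15, adjusted p = 0.0206, limma) that was lost without any 1 of the 4 arrays (adjusted p = 0.0557 to 0.110). Vegfb had a log2 change of -0.38 (adjusted p = 0.101), Tgfb1 of 0.52 (adjusted p = 0.0572), Csf2 of 0.60 (adjusted p = 0.153), Gdf3 of -0.25 (adjusted p = 0.357) and Tgfb2 of -0.03 (adjusted p = 0.927). The count of higher ligands was 2 without background correction, with the correction of offset 50 and no control beads, with stricter detection, with an intensity trend and in the authors' processed values.

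**Figure D3:**
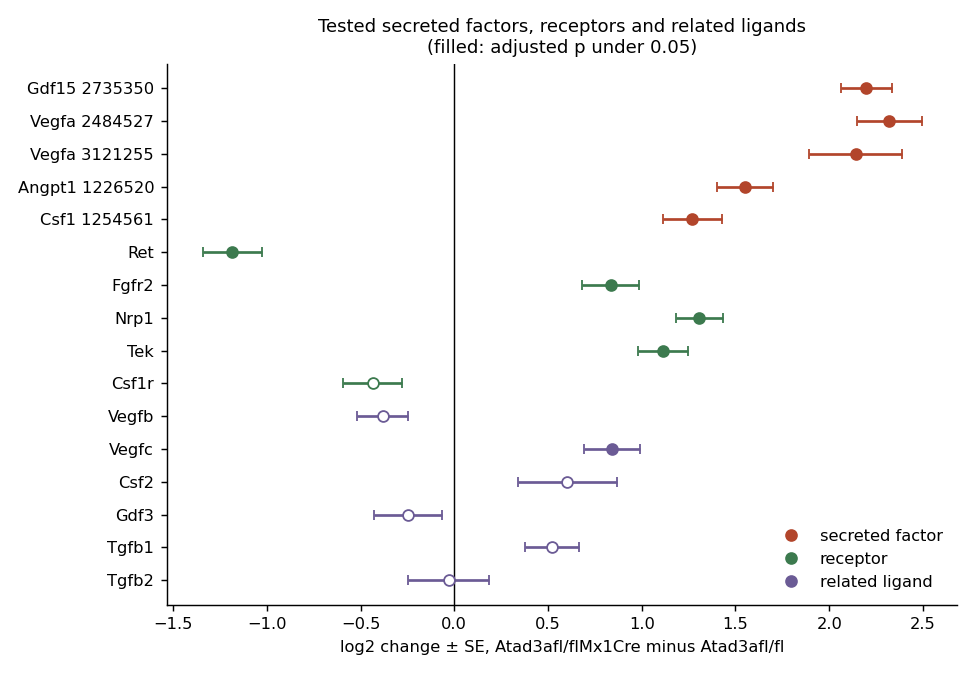
Log2 change (Atad3afl/flMx1Cre minus Atad3afl/fl, point) with its standard error (bar) for the tested probes of the secreted factors (red), the tested receptors (green) and related ligands (purple), filled where the adjusted p was under 0.05. The secreted factors lie between 1.27 and 2.32, Nrp1 and Tek rise beside them, and Ret is the called receptor below 0.

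Regulators known to act on these genes were read from lists of their pathways, chosen with earlier results of these data known. The background for each list is the share among all named genes, 14.8% called higher and 14.2% lower. Of 20 ATF4 pathway genes 18 were tested, and 12 were called higher, 3 lower and 3 did not pass (median log2 change 1.30). The 4 that moved farthest were Trib3, a pseudokinase induced by ATF4 (log2 change 5.57, SE 0.16), Chac1, which degrades glutathione (4.19, SE 0.21), Nupr1, a stress-induced nuclear protein (3.61, SE 0.14), and Atf5, which has been tied to the unfolded protein response of mitochondria (3.32, SE 0.25), with adjusted p of 0.00330 or less. Without background correction the log2 changes of Trib3, Chac1 and Nupr1 were 3.92, 3.03 and 2.67. The genes of the list called lower, chosen after their values were seen, were Ppp1r15a, the feedback phosphatase subunit GADD34 (log2 change -1.63, adjusted p = 0.00287), and the eIF2 alpha kinase genes Eif2ak3 (-0.94, adjusted p = 0.0267) and Eif2ak1 (-0.84, adjusted p = 0.0203). A second Eif2ak1 probe gave -0.35 and was not called (adjusted p = 0.0802). A further eIF2 alpha kinase gene of the list, Eif2ak2, which encodes the interferon-induced kinase PKR, was called higher (log2 change 0.95, adjusted p = 0.0356) and was chosen in the same way; its call was lost without any 1 of the 4 arrays (adjusted p = 0.0523 to 0.118), with median scaling (0.0514) and with no detection filter (0.0664). The calls of Eif2ak3 and Eif2ak1 were lost without either Atad3afl/flMx1Cre array, and that of Eif2ak3 also without Atad3afl/fl replicate 2 (adjusted p = 0.0503) and in the authors' processed values (log2 change -0.29, adjusted p = 0.0596). Without either Atad3afl/flMx1Cre array 8 genes were called higher and 1 lower. Trib3 had a log2 change of 3.42 over the mean of its detected probes. Atf4 itself, chosen after its values were seen, had a log2 change of 0.11 by its brightest probe (SE 0.13, adjusted p = 0.559), while a dimmer probe gave 1.19 (SE 0.30, adjusted p = 0.0444) and the mean of the 2 gave 0.65 (adjusted p = 0.0492). Ddit3, which encodes CHOP and was chosen in the same way, had a log2 change of 1.43 by its brightest probe (SE 0.11, adjusted p = 0.00341). A second Ddit3 probe gave 0.68 (adjusted p = 0.0166). Fgf21, a textbook ATF4 target, stayed undetected.

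Genes of the hypoxia response, through which Vegfa is also induced, were read in the same way. Of 16, 11 were tested, with 4 called higher, 1 lower and 6 not passing (median log2 change 0.44). Hif1a, the oxygen-regulated subunit, had a log2 change of 1.54 (SE 0.34, adjusted p = 0.0350), Car9, a carbonic anhydrase, of 0.86 by its brightest probe (SE 0.12, adjusted p = 0.0112), Slc2a1, a glucose transporter, of 0.69 (adjusted p = 0.0219) and Pgk1, a glycolytic enzyme, of 0.65 (adjusted p = 0.0225). None of these calls held without Atad3afl/flMx1Cre replicate 1 or without replicate 2, where 0 genes of the list were called higher, and Slc2a1 and Pgk1 were also lost without Atad3afl/fl replicate 2 (adjusted p = 0.0584 and 0.0605). Without background correction, with the correction of offset 50 and no control beads and in the authors' processed values 8 were called higher. Hif1a was also lost with no detection filter (adjusted p = 0.0738), and its log2 change was 0.66 without background correction. It was detected on 1 Atad3afl/fl array only, with log2 values of 5.69 and 4.72 on replicates 1 and 2. The size of its change therefore rests in part on a value at the floor. That change was 2.02 without Atad3afl/fl replicate 1 and 1.02 without Atad3afl/fl replicate 2. The other detected probes of Car9 gave 0.65 and 0.68 (adjusted p = 0.0931 and 0.105) and their mean with the first gave 0.73 (adjusted p = 0.0268). A second Pgk1 probe gave 0.17 (adjusted p = 0.489), and Pgk1 was lost over the mean of both (adjusted p = 0.0581). Pfkfb3, a glycolytic regulator and the gene of the list called lower, chosen after its value was seen, had a log2 change of -0.59 (adjusted p = 0.0481). That call was lost under most alternatives, among them no background correction (log2 change -0.19), the authors' processed values (-0.16) and leaving out either Atad3afl/flMx1Cre array or Atad3afl/fl replicate 2 (adjusted p = 0.157, 0.216 and 0.101).

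Gdf15 is also a target of p53. Of 12 p53 pathway genes 11 were tested, with 7 called higher, 0 lower and 4 not passing. Among all named genes 14.8% were called higher and 14.2% lower. The median log2 change was 0.49, and the same with 2 genes at their bound, whose brightest probe was undetected in controls. These were Phlda3 and Eda2r, which could not be called lower, and the bound of Eda2r was 1.03-fold. Cdkn1a, the cell cycle inhibitor p21, had a log2 change of 3.28 (SE 0.20, adjusted p = 0.00210). Phlda3, an inhibitor of AKT, was undetected in controls by its brightest probe, which passed the filter through the Atad3afl/flMx1Cre arrays alone. By that probe it was at least 4.51-fold higher, with a fitted log2 change of 2.35 (adjusted p = 0.00254, limma). A second Phlda3 probe, detected on 3 arrays, gave a log2 change of 1.57 (adjusted p = 0.0168). Zmat3, an RNA-binding protein, had a log2 change of 2.01 (SE 0.12, adjusted p = 0.00206), and Bbc3, which encodes the death protein PUMA, of 1.88 (SE 0.19, adjusted p = 0.00560). A second Bbc3 probe gave -0.01 (adjusted p = 0.987), and the mean of both gave 0.94. Cdkn1a had a log2 change of 2.67 over the mean of its detected probes. Without background correction the log2 changes of Cdkn1a, Phlda3 and Zmat3 were 2.63, 1.06 and 1.37. Without Atad3afl/flMx1Cre replicate 1, Atad3afl/flMx1Cre replicate 2 or Atad3afl/fl replicate 1, 4 genes of the list were called higher.

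**Figure D4:**
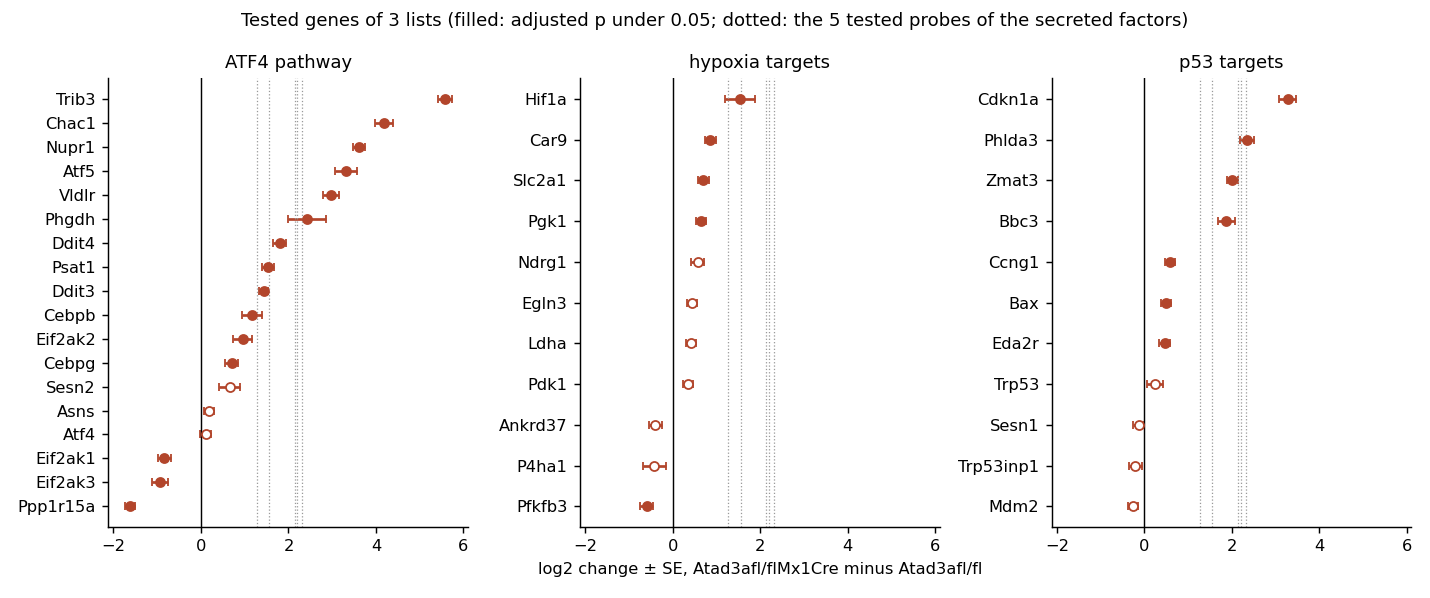
Log2 change (Atad3afl/flMx1Cre minus Atad3afl/fl, point) with its standard error (bar) of every tested gene in the ATF4, hypoxia and p53 lists, filled where the adjusted p was under 0.05. Dotted lines mark the 5 tested probes of the secreted factors, 1.27 to 2.32; the ATF4 list runs from -1.63 (Ppp1r15a) to 5.57 (Trib3).

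Markers of several cell types moved with these results. In bulk RNA fewer cells of a type and less RNA per cell cannot be told apart. Of 8 tested erythroid markers 8 were lower, and their summed normalized intensity was 2559 to 3676 on the Atad3afl/flMx1Cre arrays, against 31480.4 to 33836 on the Atad3afl/fl arrays. Of 6 tested B lymphoid markers 6 were lower (summed intensity 883 to 1185, against 15579 to 15751). Markers of cell types that could make VEGF-A, angiopoietin 1 or CSF1 were read as well. Of 8 tested megakaryocyte and platelet markers 5 were higher and 1, Gp9, lower (2799 to 3953, against 1726 to 1776). Of 6 tested stem and progenitor markers 4 were higher and 1, Kit, lower (6225 to 6265, against 2878 to 2991). The rise of that sum came from Ly6a (mean log2 of 12.15 on the Atad3afl/flMx1Cre arrays, against 9.61). Kit had a mean log2 of 10.03, against 10.85, by its brightest probe (log2 change -0.82), while its other detected probe had a log2 change of 0.44. Hlf and Mecom did not pass the filter. Of 7 T and NK cell markers 6 were higher and 0 lower (18389 to 22845, against 9140 to 9712). Of 5 tested stromal and osteoblast markers 3 (Adipoq, Cxcl12 and Col1a2) were higher and 0 lower (2042 to 2212, against 1052 to 1233), while Col1a1, Lepr, Pdgfra, Bglap and Sp7 were among the 7 of 12 that did not pass the filter. Of 5 tested endothelial markers 3 (Tek, Esam and Emcn) were higher and 0 lower (706 to 836, against 538 to 624), and Kdr and Tie1 did not pass the filter. Emcn, Col1a2 and the platelet marker Gp1bb were undetected on both Atad3afl/fl arrays and passed the filter through the Atad3afl/flMx1Cre arrays alone. They could not be called lower, and their bounds were 1.05-fold, 1.23-fold and 2.55-fold. With such genes at their bound, median log2 changes fell from 0.75 to 0.30 (stromal) and from 0.52 to 0.25 (endothelial). Of 8 monocyte and macrophage markers 1, Cd68, was higher and 0 were lower (1124 to 1525, against 1269 to 1375). The part of these shifts in the changes of Gdf15, Vegfa, Angpt1 and Csf1 was not tested.

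**Figure D5:**
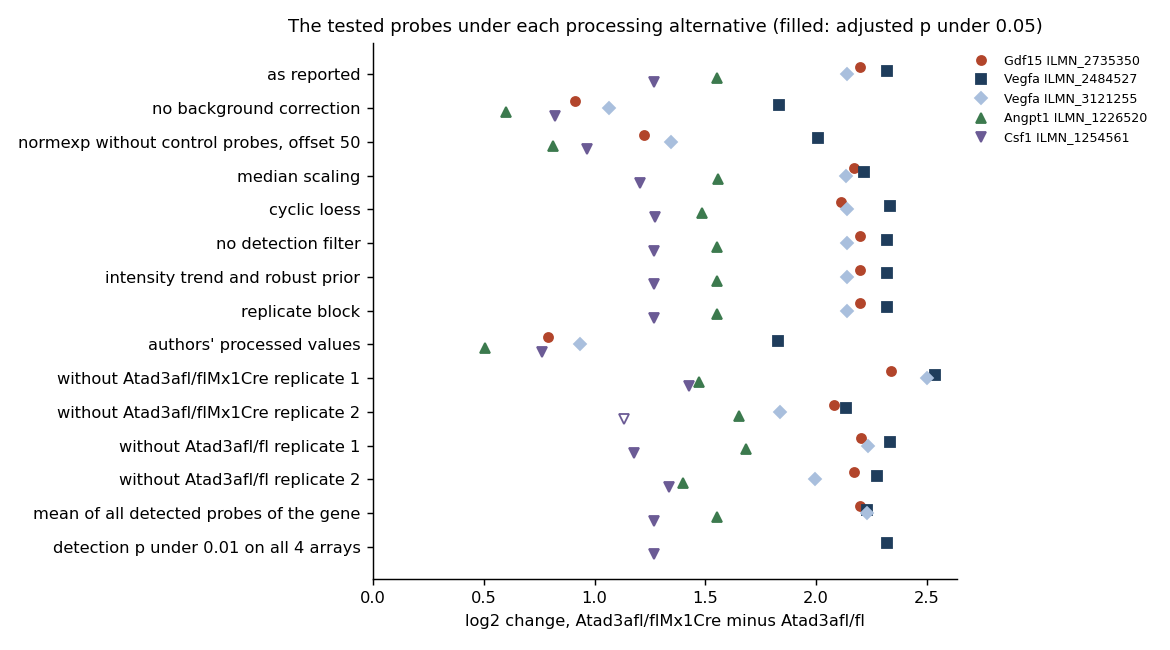
Log2 change (Atad3afl/flMx1Cre minus Atad3afl/fl) of the 5 tested probes as reported and under each alternative, filled where the adjusted p was under 0.05; probes absent from a row could not enter that fit. Every point lies above 0. All 5 probes move left without background correction and in the authors' processed values, the dim probes of Gdf15, Angpt1 and Vegfa the most. The open Csf1 point without Atad3afl/flMx1Cre replicate 2 (1.13) is the lost call.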

How the data were processed

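Per the file headers, the authors deposited for each probe and array a signal intensity without normalization and a detection p-value. GenomeStudio made them, per the submitters' processing notes. Neither its version nor its background setting was stated there. A second deposited table has the authors' processed intensity, with the method not stated. By its values it was quantile normalized: at 9 percentiles from 1 to 99 the 4 columns differed by at most 0.109%, with medians of 100.6 and 100.6 for Atad3afl/flMx1Cre, and 100.5 and 100.5 for Atad3afl/fl; it served as an alternative.

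Signals were corrected by limma 3.58.1 (R 4.3.3) with the normal plus exponential model of neqc, control beads inferred from the detection p-values and an offset of 16, then quantile normalized and put on the log2 scale. The 2 groups were fitted with lmFit and moderated with eBayes (2 residual and 2.72 prior degrees of freedom). P-values were adjusted over 18367 probes by the method of Benjamini and Hochberg, with a threshold of 0.05. Changes are Atad3afl/flMx1Cre minus Atad3afl/fl. Where neither array of a group detected a probe, its fold is given as a bound. For dim probes the size of a change, bounds included, depends on the correction and the offset. The fit was tested on simulated data with 2 arrays a group. Of 100 probes changed by a log2 of 1, 9% were called, and of 100 changed by 2, 55%. There were 0 false calls. All other probes of the 18367 were left unchanged there, whereas in the data 27.0% were called. The adjusted p depends on that share, so these rates are not the sensitivity or error rate of the fit to the data. A gene that did not pass may still have changed.

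Probes took the 1 gene of the platform table, which can be old, updated through its Entrez ID (34885 probes, 18 more with several genes left unnamed), or else the array's own name where it is a RefSeq symbol without a platform probe (1722). RefSeq tables are of GRCm38.p6. Probe sequences were not used here, so where each probe lies in its transcript is not stated.

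The members and gene lists were chosen with earlier results of these data known. Genes named are all members and tested receptors, Atad3a, up to 4 called genes of each list with the largest change and no overlap of groups, and the 3 nearest genes by profile; others are marked as chosen after their values were seen. Alternatives were no background correction, a correction with no control beads and an offset of 50, median scaling, cyclic loess, 2 other detection filters, a robust prior with an intensity trend, a block on the replicate number, each array left out, the processed values of the authors and the mean of a gene's detected probes.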

Additional observations from a re-analysis of the deposited data

How the results depend on the processing

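The 5 tested probes kept their direction under every alternative that could be fitted, and 66 of the values also passed. The 1 exception was Csf1 without Atad3afl/flMx1Cre replicate 2 (log2 change 1.13, adjusted p = 0.0574); leaving out each array in turn gave 1.13 to 1.43 for Csf1. These values are not separate checks. The 2 other detection filters, the intensity trend and the replicate block cannot alter a fitted change, only its adjusted p. The mean of detected probes is the probe itself for Gdf15, Angpt1 and Csf1, and both Vegfa probes share a mean. For Gdf15 and Angpt1 the main filter had also favoured a rise. When only probes with a detection p under 0.01 on each of the 4 arrays were kept, the probes called higher numbered 2, since the Gdf15, Angpt1 and dimmer Vegfa probes were left out by that filter. Over all probes, leaving out each array in turn gave 448 to 2530 called higher and 642 to 2154 called lower, against 2577 and 2382 with all arrays; the counts were 556 and 723 without Atad3afl/flMx1Cre replicate 1, 448 and 642 without Atad3afl/flMx1Cre replicate 2, and 1551 and 1474 without Atad3afl/fl replicate 2. Deviations of same-numbered replicates had a correlation of 0.03 over the tested probes. That value cannot show whether the numbers carry a pairing, and the labels do not say. With the replicate block 2118 probes were called higher and 1883 lower, and Gdf15, Vegfa, Angpt1 and Csf1 kept their calls. Of the other named genes, 53 values fell short of the threshold, 17 of them without Atad3afl/flMx1Cre replicate 2 and 13 without Atad3afl/flMx1Cre replicate 1. Median scaling moved the median of all named genes to -0.06 on the log2 scale. Having 2 arrays a group limits the precision, and Gdf15 and Angpt1 in controls, like Fgf21 in both groups, lay at background, where no level can be given.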

Other observations

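The genes Adipoq and Cxcl12, which also encode secreted factors and were chosen after their values were seen, are in the stromal marker list. Adipoq, which encodes the fat cell hormone adiponectin, had log2 values of 8.69 and 8.65 on the Atad3afl/flMx1Cre arrays, against 7.33 and 7.26 on the Atad3afl/fl arrays, and was 2.59-fold higher (log2 change 1.37, SE 0.11, adjusted p = 0.00389, limma). Cxcl12, a chemokine that retains progenitors in marrow, had log2 values of 10.72 and 10.56, against 9.91 and 9.61. It was 1.84-fold higher by its brightest probe (log2 change 0.88, SE 0.16, adjusted p = 0.0204), and its other detected probes gave 1.29 and 1.64. The Cxcl12 call was lost without either Atad3afl/flMx1Cre array or Atad3afl/fl replicate 2 (adjusted p = 0.115, 0.0924 and 0.0512).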
